A study of Mus musculus with 8 samples.

Results

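The genes described here set the pace of the G1 phase of the cell cycle: the D-type cyclins Ccnd1, Ccnd2 and Ccnd3, their kinases Cdk4 and Cdk6, the inhibitors Cdkn1a, Cdkn1b and Cdkn2c, the retinoblastoma gene Rb1 and the tumour suppressor gene Trp53. They were taken by name, as every probe set of the array that the annotation gives to one of these 10 symbols alone, a rule that uses no measured value. Of the 10 genes, 9 had such a probe set and Trp53 was not analysed here. These 9 genes had 26 of the 45037 probe sets tested, namely 7 for Ccnd2, 3 each for Ccnd1, Ccnd3, Cdk4 and Cdk6, 2 each for Cdkn1a, Cdkn1b and Rb1, and 1 for Cdkn2c.

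Macrophages were grown from the bone marrow of wild-type mice of a C57BL/6J background, of an age not given in the sources used here, with supernatant of L929 cells as the source of macrophage colony stimulating factor (M-CSF). On day 7 all cultures were washed and put into medium without that supernatant, so the cells of every condition had been taken off the added growth factor. M1 cells (3 arrays) then received 100 ng/ml of LPS, a bacterial cell wall component, together with 20 ng/ml of IFN-γ, M2 cells (2 arrays) received 20 ng/ml of IL-4, and M0 cells (3 arrays) received media alone. RNA was collected after 24 h. The labels name the arrays of a condition as biological replicates, whereas the methods describe 2 to 3 mice with 2 to 3 in vitro replicates, so n is a number of arrays and the p-values measure a spread that may be partly technical.

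As background, D-type cyclins are made when growth factors such as M-CSF act on a cell, and each binds Cdk4 or Cdk6 to form an active kinase. This kinase phosphorylates the retinoblastoma protein pRB, which otherwise holds back the E2F transcription factors and with them the genes of DNA synthesis. Cdkn2c encodes p18, an inhibitor of the INK4 family that binds Cdk4 and Cdk6 themselves, whereas Cdkn1a and Cdkn1b encode p21 and p27, which bind assembled cyclin-kinase complexes. Cdkn1a is the textbook target of p53, the product of Trp53, and other signals can raise it without p53.

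Intensities are given as the authors deposited them, in linear units after RMA normalization, and fold changes are differences of mean log2 intensity. Array medians lay between 38.9 and 40.4 units, with 39.8% to 40.6% of probe sets above 64 units, and the log2 profiles of any pair of arrays within a condition had a correlation of 0.994 to 0.997 across probe sets. All 9 macrophage markers looked up (Csf1r, Adgre1, Itgam, Cd68, Lyz2, Mertk, Spi1, Fcgr1 and Cd14) reached 64 units, and their summed intensity was 78216 to 79759 units in M1 arrays, 55703 to 59348 in M2 arrays and 80863 to 83396 in M0 arrays. Against M0, 5 of these 9 markers were lower in M2 cells (Adgre1, Lyz2, Mertk, Fcgr1 and Cd14), while in M1 cells 1 was higher (Cd14) and 2 were lower (Cd68 and Mertk). All 6 markers of the M1 state were higher in M1 than in M0 cells and all 6 of the M2 state higher in M2 than in M0 cells. State markers also moved in the other condition. Against M0, 2 M2 state markers were higher and 1 lower in M1 cells, and 1 M1 state marker was higher and 1 lower in M2 cells. Of 52 markers of other cell types, 45 stayed under 64 units in all 3 conditions, and S100a8, Cd4, Cd79b, Cd22, Flt3, Zbtb46 and Col1a2 did not. Some of these markers moved with the conditions: in M1 against M0 cells limma called 3 lower, Cd22 (log2 fold change -1.52, adjusted p = 3.78e-07), Cd79b (-0.92, adjusted p = 0.00647) and Cd4 (-0.47, adjusted p = 0.0273), and 3 higher, Dcn (1.18, adjusted p = 0.000171), Camp (0.56, adjusted p = 0.00544) and Lum (0.56, adjusted p = 0.013). In M2 against M0 cells Camp (-0.48, adjusted p = 0.0385) and Cd4 (-0.57, adjusted p = 0.0273) were lower. The 5 B cell markers summed to 233 to 291 units in M1 arrays, 544 to 548 in M2 arrays and 489.9 to 527 in M0 arrays, and the 7 fibroblast and stroma markers to 241 to 386 units in M1 arrays, 198 to 291 in M2 arrays and 176 to 216 in M0 arrays. The part of the macrophage markers and of these markers in the results was not tested.

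The comparison of M1 with M0 cells asks how the G1 genes stood 24 h after LPS and IFN-γ. Read from the brightest probe set of each gene, Ccnd2, Ccnd3 and Cdkn1a were higher in M1 cells, Ccnd1, Cdk4, Cdk6 and Cdkn2c were lower, and Cdkn1b and Rb1 did not pass (limma, Benjamini-Hochberg adjusted p under 0.05 over all 45037 probe sets, at any fold). Thus 3 of 9 genes were called higher and 4 lower, against 13.7% and 11.5% of all 18193 genes. Among the 10281 genes that reached 64 units in a condition, which all 9 members did, the shares were 22.5% higher and 18.4% lower. The median log2 fold change was 0.19 over the 9 genes and 0.02 over all genes. Arrays of M1 and M0 cells did not overlap for 7 of the 9 genes, against 40.3% of all genes and 57.8% of those that reached 64 units. Of the 26 probe sets, 9 were higher, 10 lower and 7 did not pass, where the shares over all probe sets were 10.2% higher and 10.2% lower.

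In M2 cells, which received IL-4, Ccnd1 and Ccnd3 were lower than in M0 cells and no gene was called higher. Whether the numbers of genes called in M1 and in M2 cells differ was not tested. The share called over all genes was 8.03% higher and 6.43% lower, and over genes that reached 64 units it was 13.2% and 10.5%. Beside the 0 genes called higher by limma, 1 gene (Cdk4) was higher at an unadjusted p under 0.05, and 5 genes were lower at that level. After adjustment the methods' t-test on log2 values called 0 genes higher and 0 lower, with an adjusted p of 0.251 for Ccnd1 and 0.0723 for Ccnd3. The median log2 fold change was -0.48 over the 9 genes and 0.01 over all genes. Arrays of M2 and M0 cells did not overlap for 8 of the 9 genes, 2 above and 6 below, which was so for 43.8% of all genes and 57.1% of those that reached 64 units. By probe set, 1 was higher, 2 were lower and 23 did not pass, against 6.32% higher and 5.85% lower of all probe sets.

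**Figure D1:**
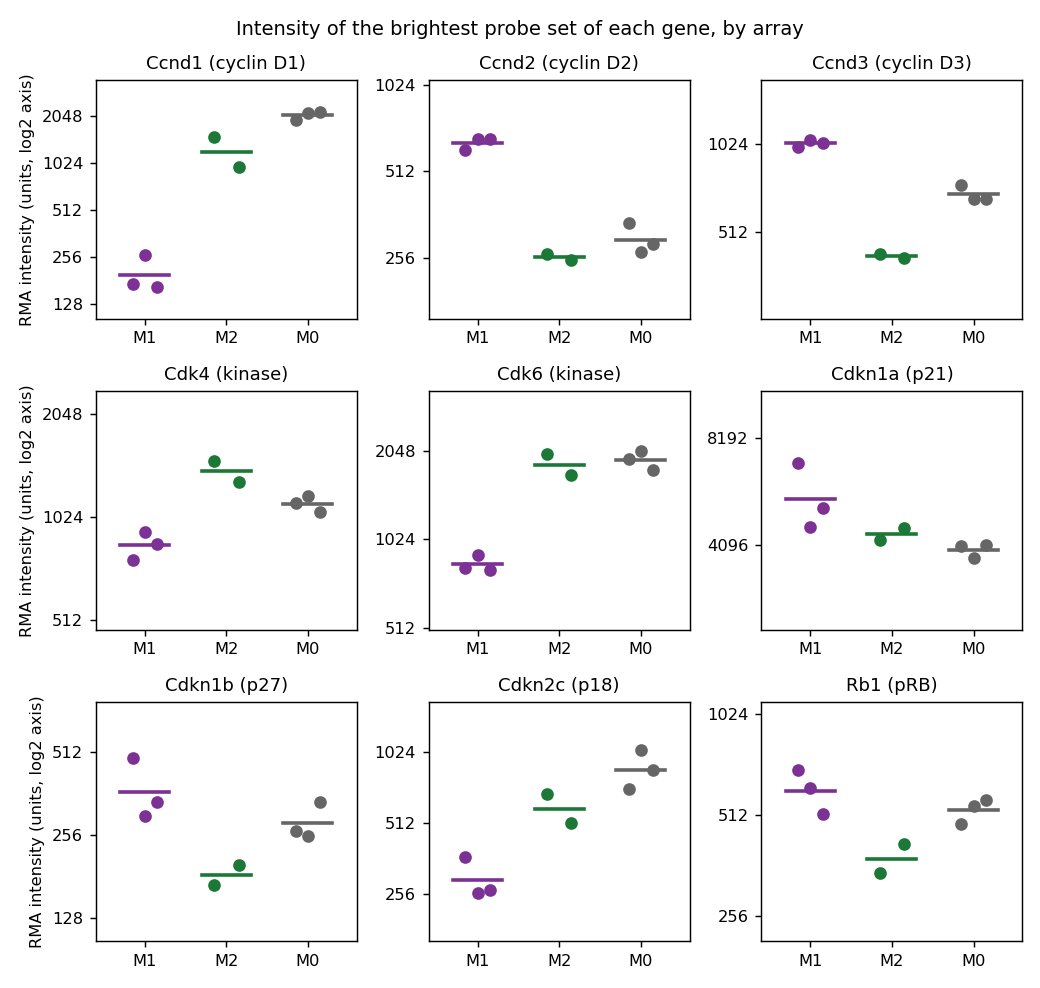
Intensity on each array (points, RMA units on a log axis) of the brightest probe set of each of the 9 measured genes, with the M1, M2 and M0 arrays from left to right and a bar at the mean of each condition. The 3 M1 arrays lie between 165 and 265 units for Ccnd1, below all M2 and M0 arrays, and between 609 and 666 units for Ccnd2, above all of them.

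Ccnd1 encodes cyclin D1, the D-type cyclin most closely tied to growth factor supply. Its brightest probe set, 1448698_at, read 173, 265 and 165 units in M1 cells, 1497 and 962 in M2 cells, and 1907, 2127 and 2166 in M0 cells. Every M1 array was below every M2 array, and every M2 array was below every M0 array. The means were 201 ± 55.3 units in M1 cells (SD, n = 3), 1229 ± 378 in M2 cells (n = 2) and 2067 ± 139.9 in M0 cells (n = 3). Ccnd1 was 10.5-fold lower in M1 than in M0 cells, with a log2 fold change of -3.39 ± 0.19 (SE, limma adjusted p = 1.3e-07). It had the widest range of condition means among the 9 genes.

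In M2 cells Ccnd1 was lower than in M0 cells by a smaller step, with a log2 fold change of -0.78 ± 0.21 (SE, limma adjusted p = 0.0308). This call rested on single arrays: the adjusted p was 0.283 without M2 replicate 2, where the log2 fold change was -0.46, 0.0874 without M0 replicate 2 and 0.0787 without M0 replicate 3. It was also lost with the methods' t-test on log2 values (adjusted p = 0.251), a floor of 64 units (adjusted p = 0.288) and the mean over probe sets (-0.66, adjusted p = 0.104). The brightest probe sets of all measured members were above 64 units on every array. The floor therefore changed none of their values and moved calls only through the other probe sets, which share the variance estimate and the adjustment. The other Ccnd1 probe sets gave -3.62 (1417420_at, adjusted p = 2.05e-07) and -2.90 (1417419_at, adjusted p = 7.23e-06) for M1 against M0 in limma. Both were also below M0 in M2 cells, by values that did not pass, -0.78 for 1417420_at (adjusted p = 0.0549) and -0.43 for 1417419_at (adjusted p = 0.441, arrays overlapping). All 3 probe sets were thus called lower in M1 cells and 1 of 3 in M2 cells, where 1417420_at gave the same size of change without passing.

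Ccnd2 encodes cyclin D2, which shares with the other D-type cyclins the binding of Cdk4 and Cdk6. Its brightest probe set, 1416122_at, read 609, 666 and 662 units in M1 cells, 266 and 253 in M2 cells, and 339.6, 269 and 287 in M0 cells. All M1 arrays were above all others, and the M2 arrays lay just under the lowest M0 array. The log2 fold change was 1.12 ± 0.11 in M1 against M0 cells (SE, limma adjusted p = 1.27e-05), a 2.17-fold difference between 646 ± 32.0 units in M1 cells and 299 ± 36.7 in M0 cells (SD, n = 3 each). In M2 cells, at 259 ± 9.12 units (n = 2), the log2 fold change against M0 was -0.20, with a 95% interval of -0.46 to 0.07 (limma adjusted p = 0.373). All 7 Ccnd2 probe sets were called higher in M1 than in M0 cells, by log2 fold changes of 0.59 to 1.23, and none was called in M2 cells, where they ran from -0.30 to 0.20. The 2 dimmest of these probe sets, 1416123_at and 1416124_at, were under 64 units on every array.

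Ccnd3 encodes cyclin D3, the D-type cyclin of many blood cell lineages, and it was the only one of the 9 genes called in opposite directions in M1 and M2 cells. The brightest Ccnd3 probe set, 1415907_at, read 997, 1052 and 1027 units in M1 cells, 434 and 418 in M2 cells, and 739, 662 and 667 in M0 cells. The arrays of the 3 conditions formed separate ranges, with M1 highest and M2 lowest. Ccnd3 was 1.49-fold higher in M1 than in M0 cells, with a log2 fold change of 0.57 ± 0.09 (SE, limma adjusted p = 0.000757). It was 1.62-fold lower in M2 than in M0 cells, with a log2 fold change of -0.69 ± 0.11 (SE, limma adjusted p = 0.000916), a call that the methods' t-test on log2 values did not make (adjusted p = 0.0723). The other Ccnd3 probe sets were dim, at 70.0 to 90.1 units (1444323_at) and 10.1 to 14.5 units (1438805_at), and passed in no comparison. With a mean over the 3 probe sets in place of the brightest, both calls were lost, at log2 fold changes of 0.17 in M1 cells (adjusted p = 0.17) and -0.27 in M2 cells (adjusted p = 0.0802).

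The kinase genes Cdk4 and Cdk6 were both lower in M1 than in M0 cells. RefSeq gives a start site for each on GRCm38.p6, and the 300 bases around it (250 before and 50 after) are shown here because these genes fell together, with matches to the E-box CACGTG, the core bound by MYC and related factors, in capitals. The E-box reads the same on both strands.
Cdk4: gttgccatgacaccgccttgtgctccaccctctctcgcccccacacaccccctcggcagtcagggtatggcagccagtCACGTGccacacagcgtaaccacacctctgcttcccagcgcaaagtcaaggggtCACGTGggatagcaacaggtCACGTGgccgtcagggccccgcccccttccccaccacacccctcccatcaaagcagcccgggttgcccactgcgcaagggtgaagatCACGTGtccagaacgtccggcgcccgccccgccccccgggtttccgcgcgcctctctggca
Cdk6: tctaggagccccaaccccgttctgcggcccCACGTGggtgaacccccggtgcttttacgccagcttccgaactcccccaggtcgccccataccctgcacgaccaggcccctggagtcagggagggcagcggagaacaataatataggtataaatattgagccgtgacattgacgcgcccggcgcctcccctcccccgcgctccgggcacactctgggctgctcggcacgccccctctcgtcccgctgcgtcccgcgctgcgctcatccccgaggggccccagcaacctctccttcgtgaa
The Cdk4 window (chr10:127063285-127063584, plus strand) holds 4 E-boxes, which begin 172, 118, 98 and 11 bases before the start site. The Cdk6 window (chr5:3343643-3343942, plus strand) holds 1, which begins 220 bases before the start site. Of all 32851 RefSeq promoter windows of this length, 7.15% hold at least 1 E-box. Among the other measured genes with a window, Cdkn2c has 2 windows. Its second (chr4:109665323-109665622, minus strand) holds 1 E-box, which begins 34 bases after the start site, and its first holds none. Ccnd3, Cdkn1a and Cdkn1b hold none. Cdkn2c was also lower in M1 than in M0 cells, and the part of E-boxes in these changes was not tested. The 9 windows held for 6 of the measured genes (Ccnd3, Cdk4, Cdk6, Cdkn1a, Cdkn1b and Cdkn2c) were also searched on both strands for the GC box GGGCGG (35.7% of all windows), an E2F site TTTCCCGC (1.07%), the cAMP response core TGACGT (7.51%) and the spacing TTCNNNNGAA preferred by STAT6 (6.95%). Of these, Cdk4 holds 3 GC boxes, 2 of which share a base, Cdk6 holds none of the 4, and the E2F and STAT6 letters are in none of the 9 windows. GC boxes are also in both Ccnd3 windows (2 each), the second Cdkn1a window (2), the Cdkn1b window (1) and the first Cdkn2c window (4). The second Ccnd3 window holds 1 cAMP response core. A match describes the letters only, and binding was not measured.

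Cdk4 encodes a kinase partner shared by all D-type cyclins. Its brightest probe set, 1422441_x_at, whose suffix marks probes that may also match other transcripts, read 766, 925 and 854 units in M1 cells, 1500.1 and 1299 in M2 cells, and 1129.5, 1179 and 1058 in M0 cells. The M1 arrays were all below and the M2 arrays all above the M0 arrays. Cdk4 fell in M1 cells with a log2 fold change of -0.41 ± 0.11 (SE, limma adjusted p = 0.0177). This call was lost without M1 replicate 1 (-0.34, adjusted p = 0.0766), M0 replicate 1 (-0.40, adjusted p = 0.0509) or M0 replicate 2 (-0.37, adjusted p = 0.0832), with the methods' t-test on log2 values (adjusted p = 0.0745) and with a floor of 64 units (adjusted p = 0.065). The floor itself changed none of the Cdk4 values. The other 2 probe sets, which lack that suffix, were also called, at -0.41 for 1422440_at (limma adjusted p = 0.0257) and -0.46 for 1422439_a_at (limma adjusted p = 0.0194). In M2 cells the log2 fold change of the brightest probe set was 0.32, with a 95% interval of 0.05 to 0.58 and an adjusted p of 0.125 in limma.

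Cdk6 encodes the second kinase of the D-type cyclins, which is prominent in blood cells. The brightest Cdk6 probe set, 1455287_at, read 816, 906 and 808 units in M1 cells, 2002 and 1691 in M2 cells, and 1916, 2046 and 1766 in M0 cells. Every M1 array was far below all others, and M2 and M0 arrays overlapped. Cdk6 fell 2.26-fold in M1 cells, with a log2 fold change of -1.18 ± 0.11 (SE, limma adjusted p = 7.63e-06). In M2 cells the log2 fold change was -0.05, with a 95% interval of -0.31 to 0.21 (limma adjusted p = 0.861).

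The other Cdk6 probe sets were also called lower in M1 cells, while in M2 cells 1 of them, 1460291_at, gave a different result. In M1 against M0 cells they gave -1.23 for 1435338_at (limma adjusted p = 8.27e-06) and -0.61 for 1460291_at (limma adjusted p = 0.0222). In M2 against M0 cells 1435338_at gave -0.19 (limma adjusted p = 0.424), but the dim 1460291_at gave 0.63 (limma adjusted p = 0.0497) and was the only one of the 26 probe sets called higher in M2 cells. It read 71.4, 61.0 and 61.0 units in M1 cells, 182 and 128 in M2 cells, and 76.2, 105 and 118 in M0 cells. The probe sets of Cdk6 thus did not all give the same difference between M2 and M0 cells.

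Among the inhibitors, Cdkn2c changed most. It encodes p18, which holds Cdk4 and Cdk6 apart from their cyclins, and it fell in M1 cells along with both kinases. Its only probe set, 1416868_at, read 368, 259 and 265 units in M1 cells, 679 and 509.6 in M2 cells, and 713, 1040.5 and 859 in M0 cells. The M1 arrays lay lowest and the M0 arrays highest, with no overlap between any conditions. Cdkn2c was 2.93-fold lower in M1 than in M0 cells, with a log2 fold change of -1.55 ± 0.17 (SE, limma adjusted p = 3.71e-05). In M2 cells the log2 fold change was -0.55, with a 95% interval of -0.97 to -0.13, and did not pass (limma adjusted p = 0.0934).

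Cdkn1a encodes p21, the inhibitor that p53 induces in stressed cells, and of its RefSeq windows the first (chr17:29090729-29091028, plus strand, GRCm38.p6) is shown because it holds a pair of CATG cores at the spacing of a p53 half-site pair, CATGNNNNNNCATG, in capitals.
Cdkn1a: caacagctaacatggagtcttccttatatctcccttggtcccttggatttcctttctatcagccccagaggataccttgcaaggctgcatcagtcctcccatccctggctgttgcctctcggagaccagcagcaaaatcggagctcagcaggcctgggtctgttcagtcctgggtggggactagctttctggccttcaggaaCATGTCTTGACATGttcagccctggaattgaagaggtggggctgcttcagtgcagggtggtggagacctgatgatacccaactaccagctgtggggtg
The match begins 48 bases before this start site. Among all 32851 windows, 0.712% hold such a match on either strand, and binding was not measured.

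The brightest Cdkn1a probe set, 1424638_at, read 6967, 4586 and 5205 units in M1 cells, 4219 and 4562 in M2 cells, and 4052, 3762 and 4093 in M0 cells. All M1 arrays were above all M2 and M0 arrays, M1 replicate 1 by the most, and the M2 arrays were just above the M0 arrays. Cdkn1a was 1.39-fold higher in M1 than in M0 cells, with a log2 fold change of 0.47 ± 0.14 (SE, limma adjusted p = 0.0299). The call was lost without M1 replicate 1 (0.30, adjusted p = 0.103), M0 replicate 1 (0.49, adjusted p = 0.0629), M0 replicate 2 (0.43, adjusted p = 0.111) or M0 replicate 3 (0.49, adjusted p = 0.0597), with the methods' t-test on log2 values (adjusted p = 0.213) and with a floor of 64 units (adjusted p = 0.189). The floor itself changed none of the Cdkn1a values. Its other probe set, 1421679_a_at, gave 0.44 with overlapping arrays and did not pass (limma adjusted p = 0.0872). In M2 cells the log2 fold change of the brightest probe set was 0.15, with a 95% interval of -0.19 to 0.48 (limma adjusted p = 0.651).

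Cdkn1b encodes p27, which holds resting cells out of the cycle and whose amount is known to be set largely by protein degradation. The brightest Cdkn1b probe set, 1434045_at, read 486, 299.9 and 339 units in M1 cells, 169.7 and 199 in M2 cells, and 266, 254 and 337 in M0 cells. M1 and M0 arrays overlapped, and both M2 arrays were below all others. The log2 fold change was 0.37 in M1 against M0 cells, with a 95% interval of 0.00 to 0.75 (limma adjusted p = 0.168). Between M2 and M0 cells it was -0.62, with an interval of -1.04 to -0.21 (limma adjusted p = 0.0537). That comparison passed when M1 replicate 1 (adjusted p = 0.0175) or M1 replicate 2 (adjusted p = 0.0382) was left out, arrays that enter this contrast only through the shared variance. The dim probe set 1419497_at, at 24.3 to 49.0 units, passed in no comparison.

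Rb1 encodes pRB, the main substrate of the cyclin D kinases. Its brightest probe set, 1417850_at, read 697, 616 and 514 units in M1 cells, 344 and 418 in M2 cells, and 483, 544 and 566 in M0 cells. M1 and M0 arrays overlapped, whereas both M2 arrays were below all others. The log2 fold change was 0.19 in M1 against M0 cells, with a 95% interval of -0.09 to 0.47 (limma adjusted p = 0.396). Between M2 and M0 cells it was -0.48, with an interval of -0.80 to -0.16 (limma adjusted p = 0.0513), which passed without M1 replicate 1 (adjusted p = 0.0424) or M1 replicate 3 (adjusted p = 0.0302). The second probe set, 1444400_at, at 11.8 to 19.0 units, passed in no comparison.

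Set directly against each other, M1 and M2 cells differed in 8 of the 9 genes by limma. Ccnd2, Ccnd3, Cdkn1b and Rb1 were higher in M1 cells and Ccnd1, Cdk4, Cdk6 and Cdkn2c were lower, that is 4 genes each way, against 11.5% higher and 12.3% lower of all genes and 18.6% and 19.8% of those that reached 64 units. Arrays did not overlap for all 9 genes, against 46.3% of all genes and 63.5% of those that reached 64 units, and the median log2 fold change was 0.33, against 0.00 over all genes. With the methods' t-test on log2 values, 2 of the 8 calls passed (Ccnd2 and Ccnd3), and the adjusted p was 0.082 for Ccnd1, 0.11 for Cdk4, 0.055 for Cdk6, 0.184 for Cdkn2c, 0.205 for Cdkn1b and 0.212 for Rb1. With a floor of 64 units, Cdkn1b (adjusted p = 0.0825), Cdkn2c (adjusted p = 0.0844) and Rb1 (adjusted p = 0.0769) did not pass, although the floor changed no value of their brightest probe sets.

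The D-type cyclins were split in this comparison. Ccnd1 was 6.11-fold lower in M1 than in M2 cells (log2 fold change -2.61 ± 0.21, SE, limma adjusted p = 2.26e-06). Ccnd2 was 2.49-fold higher (1.32 ± 0.12, limma adjusted p = 7.03e-06), and Ccnd3 was 2.41-fold higher (1.27 ± 0.11, limma adjusted p = 2.85e-06). Both kinases were lower in M1 cells, Cdk4 with a log2 fold change of -0.72 ± 0.12 (limma adjusted p = 0.000942) and Cdk6 with one of -1.13 ± 0.12 (limma adjusted p = 2.46e-05).

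The inhibitors were split as well. Cdkn2c was lower in M1 than in M2 cells, with a 95% interval of the log2 fold change of -1.42 to -0.58 (limma adjusted p = 0.00253), and Cdkn1b was higher, with an interval of 0.58 to 1.41 (limma adjusted p = 0.00245). For Cdkn1a the log2 fold change was 0.33, with a 95% interval of -0.01 to 0.66 (limma adjusted p = 0.193). Rb1 was higher in M1 cells, with a log2 fold change of 0.67 ± 0.15 (limma adjusted p = 0.00566), a call lost without M2 replicate 1 (0.53, adjusted p = 0.0802) and with the mean over probe sets (0.34, adjusted p = 0.0683). By probe set, 10 were higher, 10 lower and 6 did not pass, against 8.87% higher and 10.1% lower of all probe sets. In all 3 comparisons, 0 genes had probe sets called in opposite directions.

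The wider G1/S machinery was read from 30 further genes, all with a probe set: cyclins E and A, Cdk2, other inhibitors, pRB relatives, E2F and DP factors, the kinase that activates CDKs, and ubiquitin ligase parts. In M1 against M0 cells 6 were higher (Cdkn2b, Cdc25a, Ccnh, Mnat1, Fbxo31 and Ambra1), 10 were lower (Ccne2, Ccna2, Cdkn1c, Rbl1, E2f2, E2f7, E2f8, Skp2, Cks1b and Fbxo4) and 14 did not pass, with a median log2 fold change of -0.25. Over all genes, 13.7% were higher and 11.5% lower, with a median of 0.02. The count of 6 dropped to 3 without M0 replicate 2 or without M1 replicate 3. Ccna2, the cyclin of S phase, had the largest change among them. It read 70.9, 63.5 and 56.7 units in M1 cells, 721 and 521 in M2 cells, and 549, 944 and 661 in M0 cells. Only the M1 arrays stood apart, and the log2 fold change of M1 against M0 was -3.46 ± 0.19 (SE, limma adjusted p = 9.57e-08). E2f7 and E2f8, the atypical E2F factors that repress E2F target genes, were lower by -2.33 and -1.67 on the log2 scale (limma adjusted p = 9.3e-06 and 2.42e-05).

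In M2 against M0 cells the same list had 2 genes higher (Cdkn2b and Ccnh), 2 lower (Cdkn2d and Cdkn1c) and 26 that did not pass, with a median log2 fold change of 0.06, where 8.03% of all genes were higher and 6.43% lower, with a median of 0.01. The lower count was 0 without M2 replicate 2 and 1 without any of M1 replicates 1 to 3, M2 replicate 1, M0 replicate 1 or M0 replicate 3. The higher count was 1 without M2 replicate 1, M2 replicate 2 or M0 replicate 1. Cdkn2b encodes p15, an INK4 inhibitor like Cdkn2c, and it read 104, 91.2 and 117 units in M1 cells, 173 and 217 in M2 cells, and 67.9, 79.2 and 65.3 in M0 cells. The 3 conditions did not overlap, with M2 highest. Its log2 fold change was 0.55 ± 0.13 in M1 against M0 cells (SE, limma adjusted p = 0.00837) and 1.46 ± 0.14 in M2 against M0 cells (limma adjusted p = 2.92e-05). Cdkn2d, which encodes the INK4 inhibitor p19, had a log2 fold change of -0.68 in M2 against M0 cells (limma adjusted p = 0.00389) and -0.15 in M1 against M0 cells (limma adjusted p = 0.452). Cdkn2a, the remaining INK4 gene, passed in neither comparison. Its log2 fold changes against M0 cells were -0.08 in M1 (limma adjusted p = 0.786) and -0.10 in M2 (limma adjusted p = 0.8). The brightest Cdkn2a probe set was under 64 units on every array, so its lack of a call says little about the gene. Of the 4 INK4 genes, those called were Cdkn2b (higher) and Cdkn2c (lower) in M1 cells, and Cdkn2b (higher) and Cdkn2d (lower) in M2 cells. Ccnh, the cyclin of the CDK-activating kinase, was higher by 0.50 in M2 cells (limma adjusted p = 0.0171).

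Genes of DNA synthesis that E2F factors switch on were lower in M1 cells in nearly every case. They were read from 19 genes with a probe set, and in M1 against M0 cells 17 were lower, 0 higher, and Tyms and Orc1 did not pass, with a median log2 fold change of -1.38, against 11.5% lower and a median of 0.02 over all genes. Tyms was dim, at 10.4 to 14.6 units over all arrays, so its lack of a call says little about the gene. At an unadjusted p under 0.05 the count of higher genes in limma was also 0. Rrm2, a subunit of ribonucleotide reductase, read 39.3, 46.5 and 38.4 units in M1 cells, 812 and 526 in M2 cells, and 389.9, 747 and 530.3 in M0 cells. The M1 arrays were far below the rest, and M2 and M0 arrays overlapped. Its log2 fold change was -3.70 ± 0.21 in M1 against M0 cells (SE, limma adjusted p = 1.66e-07). The replicative helicase genes Mcm5 and Mcm7 were lower by -3.21 and -2.68 on the log2 scale (limma adjusted p = 1.72e-06 and 1.11e-06).

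In M2 against M0 cells limma called 0 of these 19 genes higher and 0 lower, with 0 higher and 4 lower at an unadjusted p under 0.05 and a median log2 fold change of -0.18, against 0.01 over all genes. The methods' t-test also gave 0 after adjustment. Without M2 replicate 1, 2 were called lower. In RNA of whole cultures, fewer cells in the cycle and less of these transcripts per cell cannot be told apart.

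Since Trp53 itself was not analysed here, 42 target genes and regulators of p53 were read. The list mixes targets with genes that act on p53, so its counts and median do not measure p53 activity. Of these 42 genes, 40 had a probe set (Bax and Fdxr were not matched). In M1 against M0 cells 7 were higher (Mdm2, Sesn2, Fas, Aen, Rrm2b, Ddb2 and Tigar), 10 were lower (Sesn1, Zmat3, Trp53inp1, Pmaip1, Plk2, Gtse1, Atr, Chek1, Chek2 and Rchy1) and 23 did not pass, with a median log2 fold change of 0.01, beside 13.7% higher, 11.5% lower and 0.02 over all genes. The count of 10 was 6 without M0 replicate 3. Sesn1, a stress sensor that restrains growth signalling through mTORC1, read 266, 395 and 349 units in M1 cells, 898 and 702 in M2 cells, and 1983, 3039 and 3147 in M0 cells. The 3 conditions formed separate ranges, with log2 fold changes of -3.01 ± 0.19 in M1 (SE, limma adjusted p = 3.53e-07) and -1.75 ± 0.21 in M2 (limma adjusted p = 0.000164) against M0 cells. Fas, the death receptor gene, read 196, 164 and 108 units in M1 cells, 75.8 and 85.1 in M2 cells, and 66.1, 62.2 and 62.0 in M0 cells. M1 was highest, with a log2 fold change of 1.26 ± 0.18 against M0 (SE, limma adjusted p = 0.000222) and no call in M2 cells (0.34, adjusted p = 0.333).

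In M2 against M0 cells 6 of the 40 p53 genes were higher (Sesn2, Gadd45a, Plk2, Aen, Atm and Hipk2), 4 were lower (Sesn1, Trp53inp1, Pmaip1 and Ddb2) and 30 did not pass, with a median log2 fold change of -0.06, beside 8.03% higher, 6.43% lower and 0.01 over all genes. The count of 6 was 3 without M2 replicate 1 or without M2 replicate 2. Plk2, a kinase of the polo family, was called in opposite directions, and it read 348, 349.8 and 329.9 units in M1 cells, 2684 and 2398 in M2 cells, and 1049, 1240.0 and 1256 in M0 cells. Every M2 array was above and every M1 array below the M0 arrays. Its log2 fold change was -1.78 ± 0.11 in M1 (SE, limma adjusted p = 2.01e-07) and 1.11 ± 0.12 in M2 (limma adjusted p = 5.43e-05) against M0 cells. Pmaip1, which encodes the apoptosis factor NOXA, read 114, 63.5 and 75.9 units in M1 cells, 49.9 and 44.3 in M2 cells, and 104, 169 and 174 in M0 cells. Both M2 arrays were below all others, and the log2 fold changes against M0 were -0.82 in M1 (limma adjusted p = 0.0181, arrays overlapping) and -1.62 in M2 (limma adjusted p = 0.000886).

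**Figure D2:**
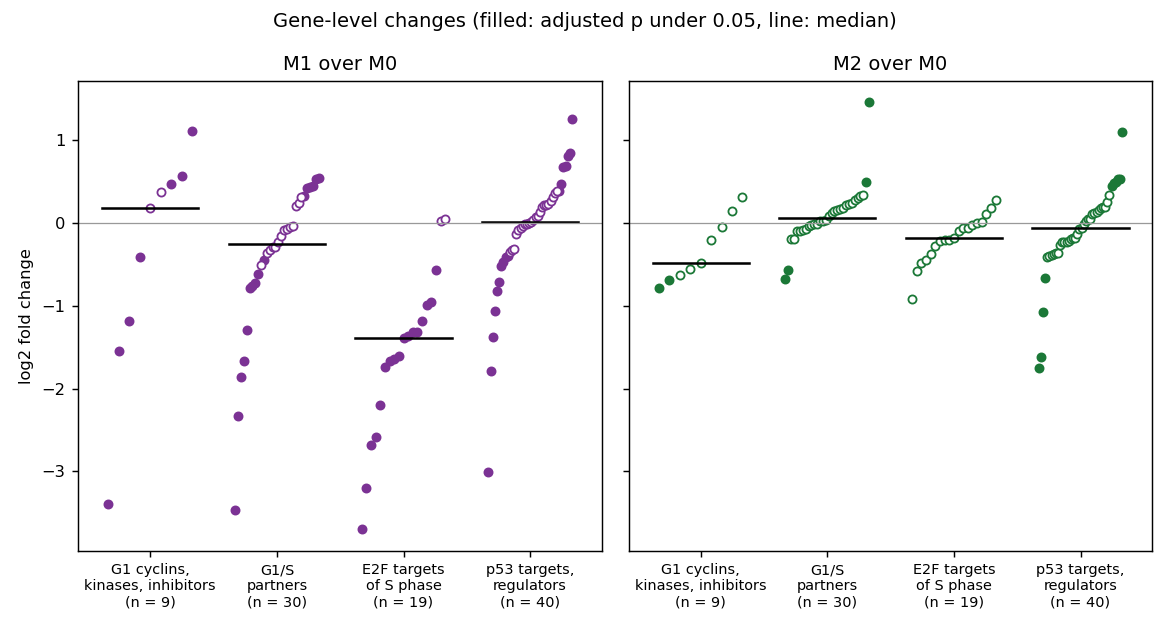
Log2 fold changes of every measured gene (points) of the G1/S partners, the E2F targets of S phase and the p53 targets and regulators in M1 against M0 and in M2 against M0 cells, with a line at each median. The E2F targets have a median of -1.38 in M1 cells and -0.18 in M2 cells, while the medians of the other lists lie between -0.25 and 0.06.

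Over the 8 arrays, the genes whose log2 intensity ran most like a member were found among 10272 genes that reached 64 units in a condition. The arrays fall into 3 conditions, so these correlations mostly describe the condition means and are given without a test, for the 4 members whose means span the widest range. Ccnd1 ran closest to Rnase4, Plin2 and Kank2 (Pearson r of 0.998 each). Cdkn2c ran closest to Tceal9 (0.987), Cdc20 (0.986) and Ska2 (0.976), of which Cdc20 is a mitotic activator of the anaphase-promoting complex. Ccnd2 ran closest to Ndufaf3 (0.997), Usp18 (0.997) and Ficd (0.996), and Ccnd3 to Isg20 (0.996), Cxcl10 (0.996) and Nudt13 (0.995). Usp18, Isg20 and Cxcl10 are known interferon-induced genes.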

How the data were processed

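Affymetrix arrays of 3 M1, 2 M2 and 3 M0 cultures were analysed. The authors deposited intensity values made with RMA in the Expression File Creator of GenePattern, which corrects background, equalises arrays and combines the probes of a set. The values are on a linear scale and were turned into log2. RMA makes the arrays' distributions alike, so a shift of all genes cannot be seen, and dim probe sets understate folds. Array number limits the precision.

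The 64 control probe sets were left out. The other 45037 were fitted with limma 3.58.1 (lmFit and eBayes, R 4.3.3) on all 8 arrays with a mean per condition, with 5 residual and 6.95 prior degrees of freedom, and the Benjamini-Hochberg adjustment covered all 45037 p-values. A probe set or gene was called at an adjusted p under 0.05, whatever its fold. A gene was read from its brightest probe set. The annotation gave 1 symbol to 34945 probe sets, several to 932 and none to 9160, and no probe set with several symbols held a member. RefSeq promoter windows (GRCm38.p6) were searched on both strands for the motifs named above; windows of Ccnd1, Ccnd2 and Rb1 were not used here. Some items are not reported here.

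The members, lists and tests were chosen with earlier results of these data known. All members are named, and values are given for the 3 called genes of each list, of at least 64 units, with the largest change in M1 and in M2 against M0. The other called list genes are named to account for the counts, chosen after their values were seen. The alternatives were those given below, and the procedure was tested on simulated data. Python 3.11.15 with matplotlib 3.10.9 drew the figures.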

Additional observations from a re-analysis of the deposited data

How the results depend on the processing

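Over 27 pairs of a member and a comparison and 540 values under other settings, 473 kept their side of the threshold. Another 54 no longer passed, 13 newly passed and 0 called values changed sign. The sign was not compared where a value passed in neither setting.

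In M1 against M0 cells, the count of members higher was 3 and fell to 1 with a 2-fold minimum; it was 2 to 3 and the count lower 3 to 4 with each array left out in turn. In M2 against M0 cells, the 2 members lower became 4 in a fit of only the groups compared, with an intensity trend and robust variances, after a further quantile normalization and after leaving out dim probe sets. The count was 1 (Ccnd3) with the replicate block, a floor of 64 units or an adjusted p under 0.01. With the mean over probe sets it was also 1, but this was Rb1 (-0.41, limma adjusted p = 0.0463). Neither Ccnd1 nor Ccnd3 (limma adjusted p = 0.104 and 0.0802) passed there. The count was 0 with the methods' t-test, whether on log2 or on linear values, or with a 2-fold minimum. It was 1 to 4 with each M1 or M0 array left out in turn. Members higher stayed at 0 in all of these. In M1 against M2 cells, the 4 members higher became 2 with either t-test, the floor or a 2-fold minimum and the 4 lower became 0 with either t-test, while leaving out arrays gave 3 to 4 and 4. Besides the losses given above, the call of Cdkn1a in M1 against M0 cells was lost with the methods' t-test on linear values (adjusted p = 0.266) and after further quantile normalization (0.43, adjusted p = 0.0528), and that of Cdk4 with the methods' t-test on linear values (adjusted p = 0.0688).

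The methods' t-test on log2 values called fewer list genes: in M1 cells 2 partners higher, 6 partners lower, 4 p53 genes higher and 5 lower, and in M2 cells 1 p53 gene higher and 0 partners higher, 0 partners lower and 0 p53 genes lower. On linear values it called 2, 0, 3 and 5 of these in M1 cells, 11 of the E2F targets lower, and 0 in each of the 4 M2 counts. With the floor, M1 counts were 2 partners higher, 4 partners lower and 4 p53 genes lower, and M2 counts 1 partner higher, 0 lower, 3 p53 genes higher and 1 lower. At an adjusted p under 0.01 they were 3 partners higher and 6 p53 genes lower in M1 cells, and 1 partner higher, 1 lower and 3 p53 genes higher in M2 cells. With a 2-fold minimum they were 0 partners higher, 5 lower, 1 p53 gene higher and 4 lower in M1 cells, and 1 partner higher, 0 lower and 1 p53 gene higher in M2 cells. The mean over probe sets left 1 partner higher in M2 cells, and the fit of only the groups compared, median centring, further quantile normalization and the filter on dim probe sets left 1 partner lower there. With arrays left out, the M1 counts ran over 3 to 6 partners higher, 9 to 12 lower, 16 to 17 E2F targets lower, and 6 to 8 p53 genes higher and 6 to 11 lower. The M2 counts ran over 1 to 2 partners higher, 0 to 2 lower, 0 to 2 E2F targets lower, and 3 to 6 p53 genes higher and 3 to 5 lower.

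Arrays share replicate numbers across conditions, but no source says that a number marks a mouse. Deviations from the condition means had a correlation of -0.245 to 0.107 in the 7 pairs of arrays with the same number and of -0.273 to 0.297 in the 14 other pairs, and correlations with the 2 M2 arrays mirror each other by construction. These values gave no sign of pairing, and whether same-numbered arrays come from the same mouse was not settled. With the replicate block, Ccnd1 in M2 against M0 cells was -0.83 with an adjusted p of 0.0565. With 2 M2 arrays, differences of the size seen for Cdk4, Cdkn1b, Cdkn2c and Rb1 in M2 cells fell near the threshold, and the cause of the changes between settings was not tested.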
